A study of Rattus norvegicus with 12 samples.

Results

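Interferon-stimulated genes are the genes that cells switch on when they sense interferon, and 35 of them were followed here through livers of Sprague Dawley rats. The members were a list of gene symbols, looked up by exact name among the 16558 genes counted in the series. The count tables list 34 of the 35. Xaf1, an antagonist of inhibitors of apoptosis, was not analysed here for its level. All 34 passed the filter on low counts that left 12355 genes to test, so a low level removed no listed member from the tests.

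The series holds RNA-seq of 12 liver samples in 4 groups of 3. Normal rats (N) received saline. Model rats (M) were fed a high-fat diet for 8 weeks, which was used to induce non-alcoholic fatty liver disease. The other 6 samples came from rats on the high-fat diet that were also given didymin, a flavonoid glycoside of citrus fruit, at a low or a high dose. The count columns mark these 2 arms with the letters D and G, and neither letter is tied to a dose there, so the letters are kept as arm D and arm G. No genetic change is given for any group, and the labels give neither the amount of didymin nor the age or sex of the rats. The high-fat diet is shared by the model and both arms, so no library shows didymin on a normal diet. Libraries carry the names in the count columns (N.1, N.2, N.3, M.5, M.6, M2.1, D.1, D.4, D.7, G.1, G.3, G.4), and values below are given in that order. M2.1 is named unlike the other model libraries. Nothing in the labels says that the 3 libraries of a group are separate animals, so a p-value here sets differences against the spread of libraries, which may be technical.

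Type I interferons act through a receptor whose kinases phosphorylate signal transducers, among them STAT2. With IRF9 these form a complex that binds the interferon-stimulated response element (ISRE) in gene promoters. Interferon gamma acts through the gamma-activated site (GAS) and induces the transcription factor IRF1 and many guanylate-binding proteins. IRF7 feeds back by driving more type I interferon, and USP18 brakes the receptor. The products of the induced genes sense viral RNA, block translation, trap virions or attack intracellular microbes. In liver, hepatocytes, Kupffer cells and sinusoidal endothelium all can respond to interferon.

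The ISRE and GAS were looked for as letters in RefSeq promoter windows of build GRCr8, which run from 250 bases before to 50 bases after a start site. Of the 35 members, 34 matched RefSeq by symbol and Ddx58 matched as a synonym of Rig1, and 27 had a window in the table used. The ISRE was searched as GAAANNGAAA on both strands. It was found in 17 of the 27 windows (63.0%), against 3.92% of all 33469 windows of the same length. The GAS was searched as TTCNNNGAA, which reads the same on both strands, and was found in 8 of 27 (29.6%) against 8.87% of all windows. At least 1 of the motifs was present in 20 of 27 (74.1%) against 12.3%, and both in 5 of 27 (18.5%) against 0.514%. The 23 ISRE matches include overlapping pairs in Oas1a, Oas1b and Bst2, and in Bst2 the GAS match overlaps the first ISRE match. In Dtx3l the only match, and in Ifi44 1 of 2, lay after the start site. These are matches of letters, and no binding was measured.

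The windows below show the ISRE letters of the members whose levels the results turn on. Each is written on the strand of GAAANNGAAA, 5′ to 3′, with the match in capitals and 10 bases on either side, from RefSeq GRCr8. The number after a name is the position of the match's first base on the gene's strand, counted back from the start site. Where a gene held several matches, the one nearest before the start is shown. In Irf7, Ifit3, Gbp2, Gbp5, Rsad2 and Ifi44 the match lies on the strand opposite to the gene.
Irf7 (-69): tgcgtctcggGAAAATGAAAcctaaactgt
Ifih1 (-59): gaagagaatcGAAACAGAAAccgatgtgtg
Oas1a (-35): tcgggaaatgGAAACTGAAAatcttgttcc
Oas1b (-53): ccgggaaatgGAAACTGAAAaccctattta
Ifit3 (-44): gtggaaactaGAAACTGAAAcagacttaaa
Gbp2 (-31): ttaagacaatGAAAGTGAAActaaaaaact
Gbp5 (-56): cctctaaactGAAATTGAAActacacaagt
Rsad2 (-147): tctgttttctGAAAATGAAAgttgaaccag
Bst2 (-125): ccaggaaaatGAAACTGAAAggtggcagca
Ifi27 (-84): gagagctgggGAAATGGAAActtacctcat
Ifi44 (-26): cctgggaaatGAAACTGAAActcagtgtgc

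The GAS letters are shown in the same way, on the gene's strand, for the 3 members that hold them and no ISRE match, and for Bst2, where they overlap the ISRE.
Irf9 (-99): accacgtgatTTCTAGGAActgcacctcc
Irf1 (-142): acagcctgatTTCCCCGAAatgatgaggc
Ifi47 (-212): atcctttggcTTCAGAGAActcattcccc
Ifi47 (-96): tgaaatcattTTCCTGGAAatgtttatgc
Bst2 (-137): cccctcccctTTCCAGGAAaatgaaactg

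The whole stretch before the start is shown for Gbp5 and Gbp2, the members with the largest fold changes in arm D. The capitals mark their ISRE matches as they read on the gene's strand, from position -56 in Gbp5 and -31 in Gbp2.
Gbp5 (GRCr8, chr2:233910749-233910998, + strand): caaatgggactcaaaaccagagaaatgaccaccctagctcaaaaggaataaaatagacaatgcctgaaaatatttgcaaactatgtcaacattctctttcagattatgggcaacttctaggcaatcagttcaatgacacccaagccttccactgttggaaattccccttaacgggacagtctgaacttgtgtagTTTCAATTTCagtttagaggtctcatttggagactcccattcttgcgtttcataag
Gbp2 (GRCr8, chr2:234005477-234005726, + strand): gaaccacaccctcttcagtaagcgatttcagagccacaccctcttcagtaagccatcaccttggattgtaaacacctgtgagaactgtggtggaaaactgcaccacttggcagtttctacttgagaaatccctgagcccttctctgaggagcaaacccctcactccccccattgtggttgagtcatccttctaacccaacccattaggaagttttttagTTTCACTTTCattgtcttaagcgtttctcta
Gbp5 and Gbp2 are near neighbours, with 2 genes between them in RefSeq.

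**Figure D1:**
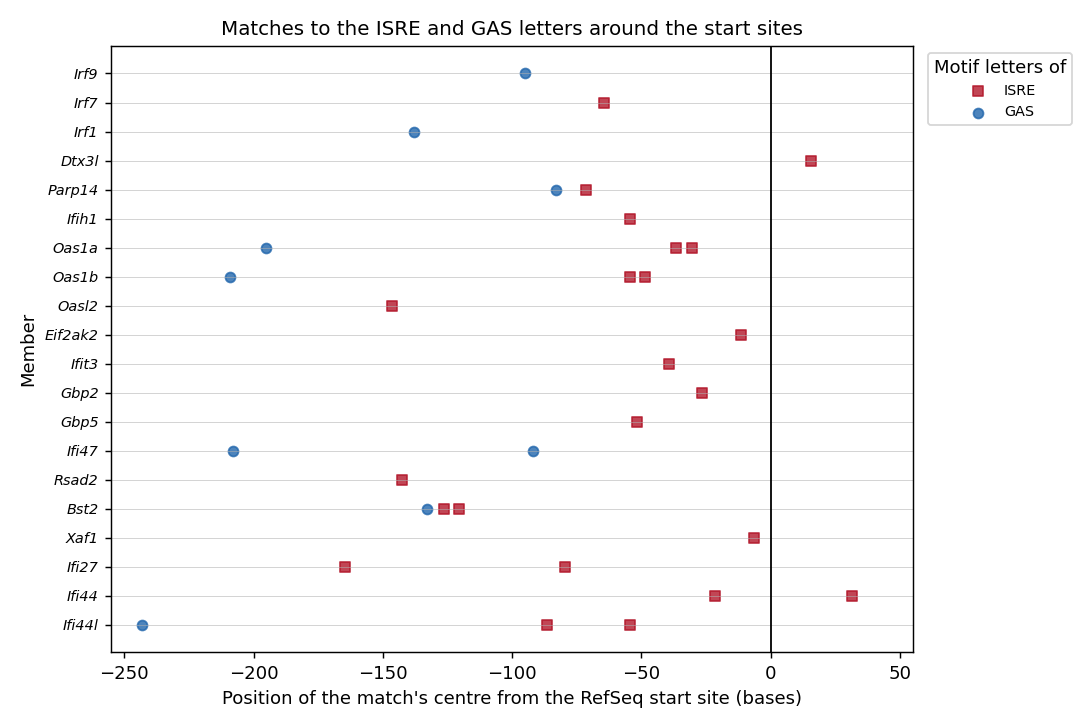
Position of each match to the ISRE letters (red squares) and GAS letters (blue circles) in bases from the RefSeq start site (vertical line at 0), 1 line per member with a match. Of 23 ISRE matches 21 lie before the start, and all 9 GAS matches do.

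The libraries differ in a way the groups do not explain. Total counts ran from 12469914 to 15521648 per library. The 13 genes of the mitochondrial genome took 3.85% to 7.88% of counts in 7 libraries and 11.2% to 61.0% in the other 5 (N.3, M.5, M.6, D.1 and G.3), with 44.1% in M.6 and 61.0% in G.3. All 13 hepatocyte markers were present, with a summed level of 54552 CPM in G.3, 88336 in M.6 and 164773 to 214515 in the rest. Alb was the largest part of that sum, at 24398 CPM in G.3 and 47144 in M.6. Not all markers followed the sum. Hnf4a, at 314 CPM in G.3 and 311 in M.6, lay above M.5 at 269, and Tat, at 917 in G.3, lay above G.4 at 627. Levels are given in CPM, read counts scaled to a common library size with TMM factors. They serve to compare libraries for a gene, and not genes with each other. In bulk liver, fewer cells of a type and less RNA per cell cannot be told apart.

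No gene of the 12355 passed an adjusted p of 0.05 in any of the 5 comparisons with edgeR's quasi-likelihood test, so the share called was 0% for all genes and 0 of 34 for the members in each. The number of all genes at an unadjusted p under 0.05 was 607 for model against normal, 776 for arm D against model, 287 for arm G against model, 569 for both arms against model and 423 for arm G against arm D. No member's change is therefore established at that threshold, and what follows gives levels, sizes and spreads. A log2 fold change is given ± its standard error, and the members named first in each direction are those of smallest unadjusted p, which need not have the largest change. DESeq2 called 38, 12, 5, 6 and 5 genes in the same order and no member. In the authors' deposited tables the lowest adjusted p of any member was 0.372, for Gbp2 and Gbp5 in group D over M.

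**Figure D2:**
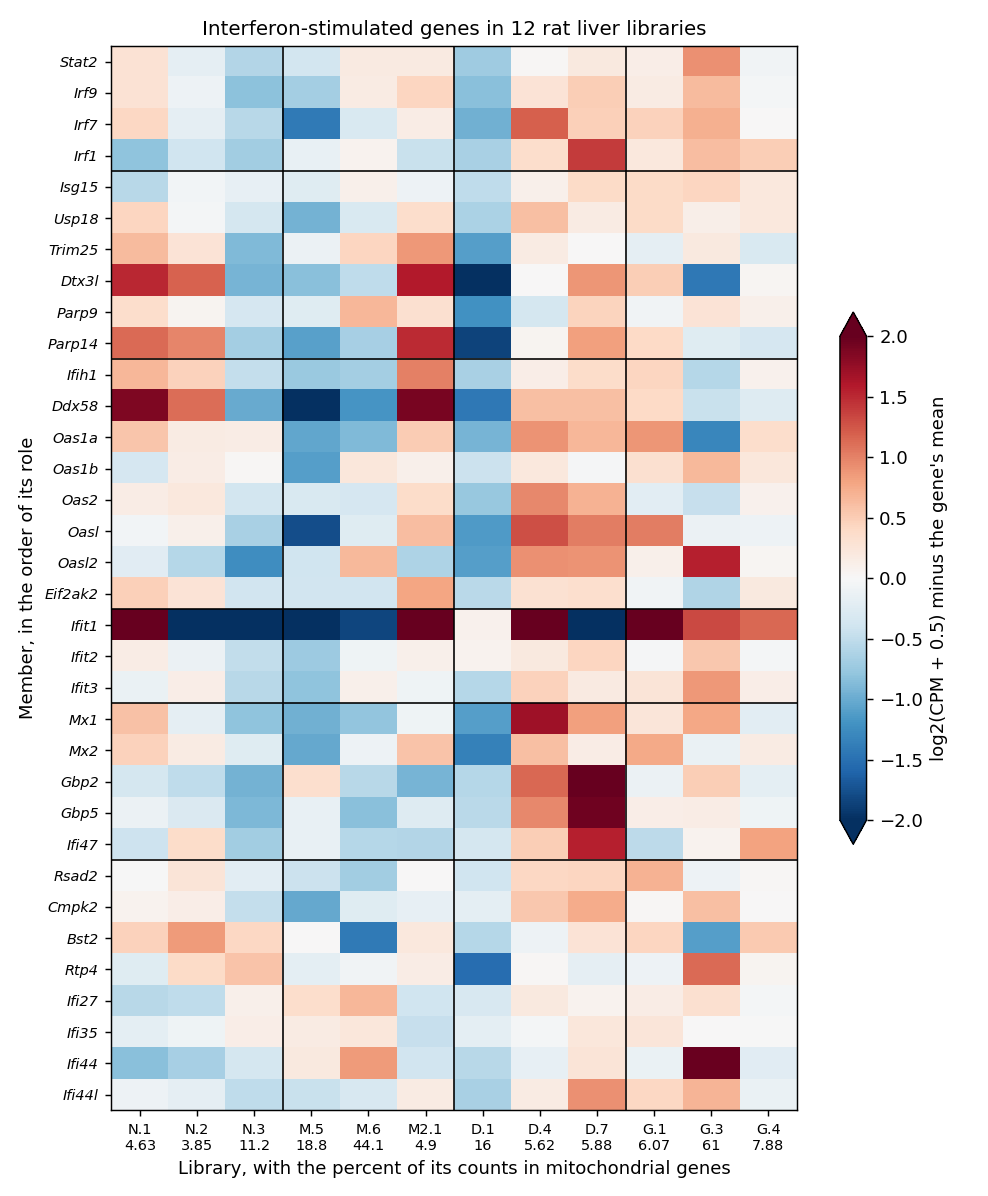
Each member (rows, by role) in each library (columns, with its percent of counts in mitochondrial genes), as log2(CPM + 0.5) minus the gene's mean over the 12 libraries. D.1 is blue for most members, D.4 and D.7 are mostly red, and Ifit1 varies widely within the normal, model and arm D groups.

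The signal transducers and regulatory factors were all readily detected. Stat2 and Irf9, which encode parts of the ISRE-binding complex, ranged over 3.14-fold and 2.84-fold across the 12 libraries. Stat2 was at 78.1, 56.4 and 42.1 CPM in the normal livers, 49.5, 72.4 and 72.2 in the model, 38.5, 64.9 and 72.9 in arm D, and 69.6, 121 and 60.4 in arm G. Irf9 was at 25.4, 19.2 and 11.4 CPM in the normal livers, 12.6, 23.2 and 28.04 in the model, 11.4, 25.1 and 29.2 in arm D, and 23.2, 32.2 and 20.1 in arm G. In both genes D.1 was lowest and G.3 highest, and the 4 groups overlapped. Irf7, the factor that amplifies type I interferon production, had a wider range. Irf7 was at 50.1, 33.05 and 25.6 CPM in the normal livers, 13.9, 30.4 and 41.6 in the model, 19.02, 87.03 and 52.8 in arm D, and 52.1, 62.2 and 37.7 in arm G. The 2 highest libraries were D.4 and G.3, the lowest was M.5, and the arms overlapped the model. Irf1, a transcription factor that interferon gamma induces, stood out in D.7. Irf1 was at 13.4, 17.9 and 14.5 CPM in the normal livers, 21.4, 25.1 and 17.3 in the model, 15.04, 30.6 and 63.8 in arm D, and 27.7, 36.8 and 33.8 in arm G. The 3 arm G libraries lay above all 3 model libraries, and D.1 lay below all of them.

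The ISG15 system attaches a ubiquitin-like protein to others. Isg15 encodes that modifier. Isg15 was at 8.71, 12.5 and 11.6 CPM in the normal livers, 10.9, 13.9 and 12.1 in the model, 9.01, 13.9 and 17.01 in arm D, and 16.99, 17.7 and 15.04 in arm G. All 3 arm G libraries were above the model, and the normal and model livers overlapped. Usp18 removes the modifier and restrains the receptor. Usp18 was at 20.5, 14.6 and 11.7 CPM in the normal livers, 7.62, 12.1 and 19.4 in the model, 9.51, 23.2 and 16.9 in arm D, and 19.7, 16.4 and 17.5 in arm G. The lowest library was M.5 and the highest D.4, with overlap between all groups. Trim25, a ligase that activates the RNA sensor RIG-I, was highest in M2.1. Trim25 was at 29.7, 23.1 and 9.99 CPM in the normal livers, 17.5, 25.7 and 34.98 in the model, 8.59, 21.2 and 19.1 in arm D, and 16.6, 21.7 and 15.2 in arm G. Both arms overlapped the model through M.5, and M.6 and M2.1 lay above all 6 didymin libraries.

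The partners Dtx3l and Parp9 form a ligase complex that modifies histones. Dtx3l was at 17.1, 13.6 and 2.76 CPM in the normal livers, 2.998, 3.87 and 18.2 in the model, 1.06, 5.74 and 11.01 in arm D, and 8.24, 1.81 and 5.89 in arm G. Parp9 was at 60.2, 48.9 and 37.2 CPM in the normal livers, 40.02, 75.5 and 59.00 in the model, 20.2, 37.1 and 64.8 in arm D, and 45.2, 57.2 and 50.7 in arm G. Dtx3l was at most 3.87 CPM in the 5 libraries of high mitochondrial share and at least 5.74 in the others, with a range of 17.1-fold between M2.1 and D.1, whereas Parp9 ranged over 3.73-fold and was highest in M.6. The 2 genes overlap in RefSeq, and whether the counting used strand is not given in the sources used here, so their reads cannot be fully told apart. Parp14, a related ADP-ribosyltransferase, ranged from 4.40 CPM in D.1 to 49.7 in M2.1.

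The RNA sensors followed the same split. Ifih1 encodes MDA5, a sensor of long double-stranded RNA. Ifih1 was at 25.2, 21.99 and 11.2 CPM in the normal livers, 9.24, 9.72 and 32.2 in the model, 9.86, 17.3 and 20.5 in arm D, and 21.5, 10.5 and 16.8 in arm G. Ddx58 encodes RIG-I, which senses RNA with a free 5′ triphosphate. Ddx58 was at 29.7, 17.3 and 3.58 CPM in the normal livers, 1.38, 3.15 and 30.1 in the model, 2.55, 11.99 and 11.98 in arm D, and 10.3, 5.56 and 6.37 in arm G. Both were highest in M2.1 and lowest in M.5, 2 libraries of 1 group. The 3 model values of Ddx58 therefore enclosed every other library. Eif2ak2, the kinase PKR that stops translation, ran from 16.2 CPM in G.3 to 43.6 in M2.1.

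Among the 2′-5′ oligoadenylate synthetases, which activate RNase L, and their relatives, D.4 was highest for Oas1a (22.2 CPM), Oas2 (2.07) and Oasl (16.5). Oas1a was lowest in G.3 at 4.42 CPM and Oasl in M.5 at 1.54. Oas2 was the lowest member in counts among them. Oas2 was at 0.96, 1.02 and 0.522 CPM in the normal livers, 0.567, 0.54 and 1.19 in the model, 0.284, 2.07 and 1.63 in arm D, and 0.639, 0.454 and 0.901 in arm G. Its counts ran from 4 to 36 per library. Oas1b and Oasl2 behaved differently and were both highest in G.3. Oas1b was at 6.08, 8.71 and 7.98 CPM in the normal livers, 3.403, 9.27 and 8.41 in the model, 5.68, 9.18 and 7.69 in arm D, and 9.900, 12.6 and 9.22 in arm G. Oasl2 was at 4.42, 3.37 and 1.94 CPM in the normal livers, 3.89, 8.55 and 3.25 in the model, 2.200, 10.4 and 10.3 in arm D, and 5.68, 16.4 and 5.404 in arm G. The 3 arm G libraries lay just above the 3 of arm D for Oas1b. Oas1a and Oas1b are close relatives, as are Oasl and Oasl2 and Mx1 and Mx2, and how the counting divided reads between such pairs is not given in the sources used here.

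Ifit1 ranged from 0 to 409 counts, with D.1, G.3 and G.4 between the low and the high libraries, a pattern singled out after its values were seen. It encodes a protein that binds viral RNA lacking the host's cap methylation. Its counts were 279, 0 and 3 in the normal livers, 1, 6 and 409 in the model, 49, 345 and 1 in arm D and 348, 78 and 112 in arm G. Each of the first 3 groups held at least 1 library at 6 counts or fewer and 1 at 279 or more, so the groups had no common level. In arm G against the model its log2 fold change was 0.75 ± 1.81, an error larger than the difference. The neighbouring Ifit2 stayed between 12.2 and 29.95 CPM in all libraries. Ifit3, which partners IFIT1, ranged over 3.46-fold. Ifit3 was at 6.85, 8.41 and 4.996 CPM in the normal livers, 4.13, 8.19 and 7.104 in the model, 4.97, 10.6 and 8.65 in arm D, and 9.197, 14.3 and 8.38 in arm G. Ifit1 overlaps Ifit1bl in RefSeq, and how reads shared by the 2 were counted is not known. In N.2, where Ifit1 had 0 counts, Ifit2 had 315 and Ifit3 140.

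**Figure D3:**
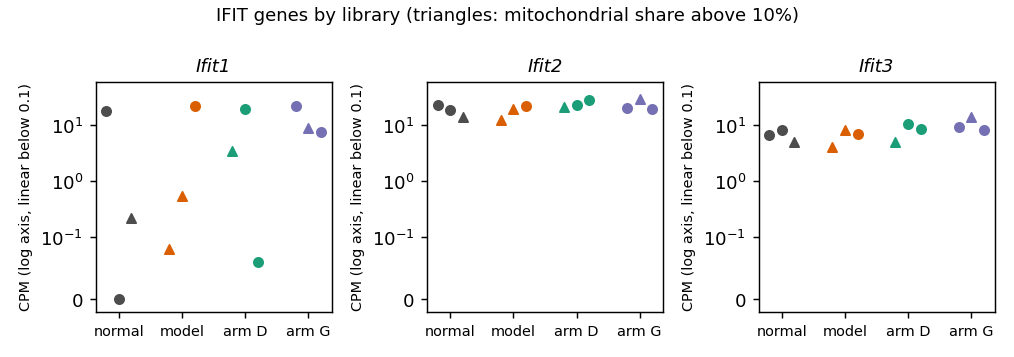
Ifit1, Ifit2 and Ifit3 in CPM by group, 1 point per library, on a log axis that is linear below 0.1, with triangles for libraries of mitochondrial share above 10%. Ifit1 runs from 0 in N.2 to 22.2 in G.1, while Ifit2 stays between 12.2 and 29.95 and Ifit3 between 4.13 and 14.3.

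The large GTPases held the largest differences between arm D and the model. Gbp2 and Gbp5, guanylate-binding proteins that act against intracellular microbes and in inflammasome activation, were highest in D.7 and next in D.4. Gbp2 was at 10.2, 9.07 and 6.56 CPM in the normal livers, 16.8, 8.82 and 6.67 in the model, 8.66, 29.8 and 62.8 in arm D, and 12.1, 18.6 and 11.4 in arm G. Gbp5 was at 3.59, 3.12 and 1.86 CPM in the normal livers, 3.48, 1.98 and 3.199 in the model, 2.55, 8.09 and 16.5 in arm D, and 4.34, 4.42 and 3.67 in arm G. D.1 lay within the range of the model for both genes, so the higher arm D mean rested on D.4 and D.7. Ifi47, an immunity-related GTPase of rodents, had the same order in arm D. Ifi47 was at 12.2, 21.4 and 9.99 CPM in the normal livers, 14.8, 10.98 and 10.7 in the model, 12.8, 23.4 and 49.1 in arm D, and 11.3, 17.2 and 29.1 in arm G. Mx1, an antiviral dynamin-like GTPase, was instead highest in D.4. Mx1 was at 15.2, 8.71 and 5.52 CPM in the normal livers, 4.86, 5.58 and 9.38 in the model, 4.399, 33.3 and 18.04 in arm D, and 11.9, 17.5 and 8.59 in arm G. D.1 was the lowest of all 12 libraries. Mx2 ran from 14.8 CPM in D.1 to 65.3 in G.1.

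**Figure D4:**
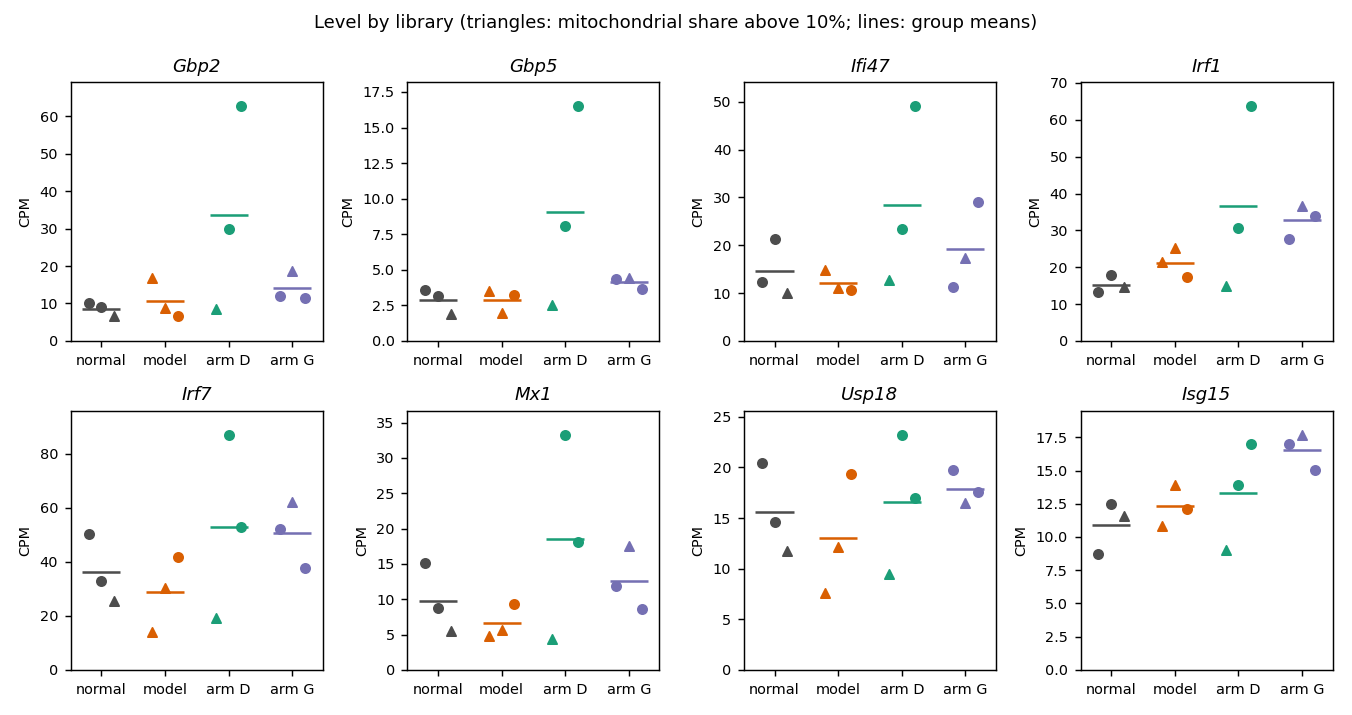
Levels in CPM of 8 members by group, 1 point per library with lines at group means, and triangles for libraries of mitochondrial share above 10%. In Gbp2, Gbp5, Ifi47 and Irf1 the highest point is D.7, and in Irf7, Mx1 and Usp18 it is D.4.

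The remaining effectors differed from each other. Rsad2 encodes viperin, which makes a chain-terminating nucleotide, and its neighbour Cmpk2 a mitochondrial nucleotide kinase. Rsad2 was at 3.78, 4.63 and 3.21 CPM in the normal livers, 2.67, 2.16 and 3.796 in the model, 2.77, 5.22 and 5.27 in arm D, and 6.45, 3.52 and 3.88 in arm G. Cmpk2 was at 4.74, 4.93 and 3.06 CPM in the normal livers, 1.94, 3.69 and 3.96 in the model, 3.83, 6.71 and 7.81 in arm D, and 4.53, 7.03 and 4.504 in arm G. Rsad2 was lowest in M.6 and Cmpk2 in M.5, and all 3 arm G libraries were above the model for Cmpk2. Bst2 encodes tetherin, which holds budding virions at the membrane. Bst2 was at 216, 283 and 208 CPM in the normal livers, 158, 58.7 and 180 in the model, 105, 146 and 188 in arm D, and 212, 73.05 and 226 in arm G. The model lay wholly below the normal livers, and M.6 and G.3 were the 2 lowest. Rtp4, a chaperone of cell-surface receptors, and Ifi44 had their highest level in G.3. Rtp4 was at 30.7, 47.2 and 53.99 CPM in the normal livers, 31.7, 34.4 and 40.1 in the model, 12.2, 36.8 and 31.9 in arm D, and 33.8, 79.9 and 37.5 in arm G. Ifi44 was at 8.52, 9.73 and 12.2 CPM in the normal livers, 17.99, 28.8 and 11.9 in the model, 10.5, 13.9 and 18.9 in arm D, and 14.3, 63.3 and 13.3 in arm G. Ifi27, a small membrane protein, was the most counted member. Ifi27 was at 446, 463 and 702 CPM in the normal livers, 836, 1042 and 498 in the model, 525, 750 and 689 in arm D, and 726, 818 and 637 in arm G. M.6 was highest and N.1 lowest. Ifi35 ran only from 22.1 CPM in M2.1 to 36.3 in G.1, the narrowest range of any member at 1.64-fold, and Ifi44l from 3.90 in D.1 to 12.5 in D.7.

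The members had no common direction between the model and normal livers. Against normal livers, 15 members were higher in the model and 19 lower, with a median log2 fold change of -0.062, beside a median of 0.031 over all genes tested. No member had an unadjusted p under 0.05 in either direction (lowest adjusted p 0.866), against 3.01% of all genes higher and 1.9% lower. Bst2 was lower at a log2 fold change of -0.83 ± 0.47 (unadjusted p = 0.0974), and it was the 1 member whose model libraries all lay below the normal ones, against 5.29% of all genes. No member lay wholly above, against 5.25%. Without M2.1 the members wholly below were Bst2, Ddx58, Eif2ak2, Ifih1, Oas1a and Rsad2, 6 (17.6%) against 21.5% of all genes, and those wholly above were Ifi27, Ifi35, Ifi44 and Irf1, 4 (11.8%) against 22.5%. Without N.1 or without N.3 there were 2 (5.88%) wholly below, against 7.56% and 11.8% of all genes. Ifi27 and Ifi44 lay wholly above without N.3, 2 (5.88%) against 11.9%, and Irf1 without N.2, 1 (2.94%) against 7.25%. Rsad2 at -0.42 ± 0.39 and Cmpk2 at -0.41 ± 0.39 came next by p among those lower. Ifi44 was higher at a log2 fold change of 0.95 ± 0.55 (unadjusted p = 0.11), Ifi27 at 0.56 ± 0.33 and Irf1 at 0.48 ± 0.41. By role, 6 of 8 RNA sensors and responders were lower and 3 of 4 transducers and regulatory factors higher. The balance moved with single libraries: 8 of 34 members were higher without N.3, 10 without M2.1 and 21 without N.1 or without M.5, beside 50.8% to 54.6% of all genes higher in these 4 settings. M.6, the model library lowest for Bst2, had 44.1% mitochondrial counts. Without M.6 and G.3 the Bst2 difference was -0.48 on the log2 scale, and the part of mitochondrial share in it was not tested. Beside these values, 14 of 17 Kupffer cell and macrophage markers were lower in the model than in normal livers (median -0.53, from -0.80 to -0.40 with single libraries left out) and 15 of 16 T and NK cell markers higher (median 0.67, from 0.42 to 1.008), whose part was not tested either.

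In arm D, GTPases led the members that were higher than in the model. Gbp5 was higher at a log2 fold change of 1.64 ± 0.55 (unadjusted p = 0.0105) and Gbp2 at 1.65 ± 0.57 (unadjusted p = 0.013). Ifi47 stood at a log2 fold change of 1.22 ± 0.49 (unadjusted p = 0.0265), Mx1 at 1.49 ± 0.61 (unadjusted p = 0.0299) and Cmpk2 at 0.93 ± 0.39 (unadjusted p = 0.0351). These 5 were the members with an unadjusted p under 0.05 in this direction, 14.7% of 34 against 3.04% of all genes, and none was lower at that p, against 3.24%. Their adjusted p in the quasi-likelihood test lay between 0.783 and 0.786. Without D.7 the fold change was 0.88 for Gbp5, 0.85 for Gbp2 and 0.57 for Ifi47, and without D.4 it was 0.76 for Mx1. All 5 GTPases were higher, with a median of 1.49, and all 3 IFIT genes, while 4 of 6 members of the ISG15 and ligase group were lower. Among those lower were Trim25 at -0.68 ± 0.43, Parp9 at -0.51 ± 0.38 and Rtp4 at -0.39 ± 0.42. Over all members 23 were higher and 11 lower with a median of 0.13, beside -0.038 over all genes. No member lay wholly above or below the model, against 5.93% and 6.71% of all genes, and D.1 was above the highest model library for none of the 34.

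D.1 and the other arm D libraries were unlike. D.1 was the lowest of all 12 libraries for 11 members and the highest for none, while D.4 and D.7 were each the highest for 6. Without D.1, 28 members were higher, against 46.2% of all genes. The members at an unadjusted p under 0.05 were then 8 higher and 0 lower, against 3.89% and 2.13% of all genes, and 16 (47.1%) lay wholly above the model, against 12.6%. Without D.7, 17 of 34 were higher, with 1 member higher and 1 lower at that p, against 1.89% and 1.86%. D.1 had 16.02% mitochondrial counts, D.4 5.62% and D.7 5.88%. Without M2.1, the model library of low mitochondrial share, the members' median was 0.69.

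Markers of other cells differed alongside the members in arm D. The summed level of the 17 Kupffer cell and macrophage markers found was 2347 CPM in D.4, 1648 in D.7 and 814 in D.1. It was 504 to 1049 in the model, 862 to 1213 in the normal livers and 622 to 1121 in arm G. Of these 17 markers 16 were higher in arm D than in the model, 13 of them at an unadjusted p under 0.05 against 3.04% of all genes, with a median of 1.36. Without D.4 the median was 0.77 with 3 at that p, against 1.26% of all genes in each direction. Without M.6 it was 1.05 with 6 higher and 1 lower at that p, against 1.85% and 1.37%. All 10 sinusoidal endothelial markers were higher as well, with a median of 0.71 and 5 at that p, or 2 without M.6. T and NK cell markers summed to 167 CPM in D.4, 112 in D.7 and 104 in D.1, against 45.8 to 104 in the model. Of that sum Cd4 alone was 48.6 CPM in D.4, 31.8 in D.7 and 9.72 in D.1, against 6.30 to 12.9 in the model. In D.4 Cd2, Cd3e and Cd3g, at 1.03, 0.459 and 0.975 CPM, lay within the range of the model. Cd3d, at 0.746 CPM in D.4, lay above the highest model library at 0.567. Of 16 T and NK cell markers tested 11 were higher than in the model (median 0.32), and 2 were at that p. For dendritic cells the sum was 60.4 CPM in D.4 and at most 25.4 in any other library, with Siglech, which marks plasmacytoid cells, at 0 to 0.76 CPM. The part of these cells in the interferon-stimulated genes of arm D was not tested. No cell marker passed the adjusted test.

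**Figure D5:**
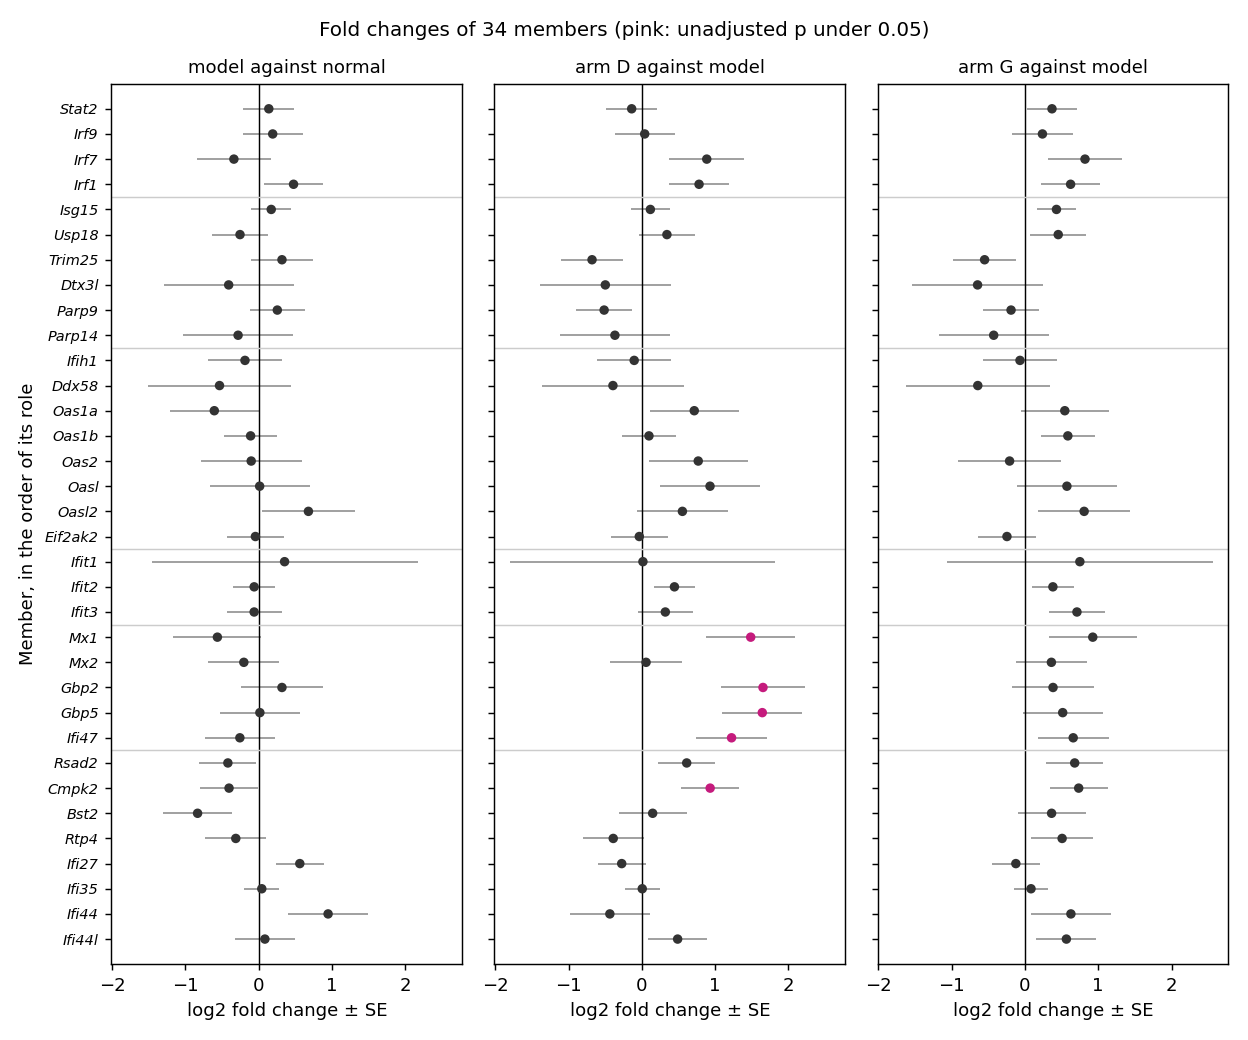
Log2 fold change with its standard error for each of 34 members in 3 comparisons, with pink for an unadjusted p under 0.05. The 5 pink points, Mx1, Gbp2, Gbp5, Ifi47 and Cmpk2, are all in arm D against the model, and the model libraries are shared by the 3 panels.

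In arm G, more members were higher than lower against the model, and none by as much as the guanylate-binding proteins of arm D. Of 34, 25 were higher and 9 lower with a median of 0.44, beside 0.0005 over all genes. Ifit3 was higher at a log2 fold change of 0.71 ± 0.38 (unadjusted p = 0.0837), Cmpk2 at 0.73 ± 0.40 and Rsad2 at 0.68 ± 0.39. No member had an unadjusted p under 0.05, against 1.2% of all genes higher and 1.13% lower. Irf1, Isg15, Ifit3, Gbp5 and Cmpk2 lay wholly above the model, 5 of 34 or 14.7% against 2.61% of all genes, and none lay wholly below, against 2.09%. Irf1 was higher at 0.62 ± 0.40 and Isg15 at 0.43 ± 0.27. All 4 transducers and factors, all 3 IFIT genes and all 5 GTPases were on the higher side, and 7 of 8 in the group of other effectors. In the ISG15 and ligase group 4 of 6 were lower, with a median of -0.31, and the RNA sensors were 4 higher and 4 lower. Of the Kupffer cell and macrophage markers 15 of 17 were higher in arm G than in the model (median 0.45) and of the endothelial markers 10 of 10 (median 0.28), medians that ran from 0.34 to 0.71 and from 0.05 to 0.48 with single libraries left out. B and plasma cell markers were higher for 6 of 7 (median 0.98, 1 at an unadjusted p under 0.05), dendritic cell markers for 5 of 7 (median 0.51) and T and NK cell markers for 12 of 16 (median 0.37, 1 at that p). The part of these cells was not tested.

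Those lower in arm G were led by Trim25 at -0.55 ± 0.43, Dtx3l at -0.65 ± 0.90 and Ddx58 at -0.64 ± 0.98. Dtx3l and Ddx58 turned to higher, at 0.65 and 1.73, when M2.1 was left out. M2.1 alone of the model libraries held high levels of both. G.3, with 61.0% mitochondrial counts, was the highest of all libraries for 9 members and the lowest for 2. Without M.6 and G.3 the median over members was 0.29 with 25 still on the higher side, and without the 5 libraries of high mitochondrial share it was 0.062 with 18 higher and 16 lower. That last comparison leaves M2.1 as the lone model library. With fewer libraries groups overlap less for any gene. The number wholly above the model was 9 (26.5%) without M.6 and G.3 against 14.5% of all genes, 8 (23.5%) without G.3 against 9.998%, 9 (26.5%) without G.4 against 4.55% and 17 of 34 without M2.1 against 10.1%.

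With both arms pooled against the model, 26 members were higher and 8 lower, with a median of 0.31 beside -0.028 over all genes. Cmpk2 at a log2 fold change of 0.83 ± 0.35 (unadjusted p = 0.0351), Mx1 at 1.21 ± 0.54 (unadjusted p = 0.0464) and Gbp5 at 1.08 ± 0.49 (unadjusted p = 0.0465) had an unadjusted p under 0.05, 8.82% of members against 2.19% of all genes, and none was lower at that p, against 2.41%. Trim25 at -0.62 ± 0.36, Parp9 at -0.35 ± 0.32 and Dtx3l at -0.57 ± 0.76 were the leading members on the lower side. The adjusted p of each member was at least 0.995. No member had all 6 didymin libraries above the 3 of the model or below them, against 1.21% and 0.882% of all genes. Without D.1, Cmpk2, Gbp5, Ifit3, Irf1 and Isg15 lay wholly above, 5 (14.7%) against 1.75% of all genes, and without M2.1 Cmpk2, Ifih1, Ifit2 and Rsad2 did, 4 (11.8%) against 6.19%, with Ifi27 wholly below, against 4.86%. The members at an unadjusted p under 0.05 and higher numbered 8 without D.1 against 2.86% of all genes, 7 without M2.1 against 6.44%, and 0 without D.4 or D.7, against 1.21% and 1.44%. The same model libraries serve all 3 of these comparisons and the one with normal livers, so these results are not independent of each other.

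The largest differences between the arms themselves were in the guanylate-binding proteins. Gbp2 was lower in arm G than in arm D at a log2 fold change of -1.27 ± 0.56 (unadjusted p = 0.0432), and Gbp5 at -1.13 ± 0.54 (unadjusted p = 0.0567), with Oas2 next at -0.98 ± 0.69. For both guanylate-binding proteins D.1, at 8.66 CPM for Gbp2 and 2.55 for Gbp5, lay below all 3 arm G libraries. Over the 20 alternatives the difference ran from -1.98 to -0.47 for Gbp2 and from -1.62 to -0.37 for Gbp5. Gbp2 was the only member at an unadjusted p under 0.05 and lower, 2.94% of 34 against 0.971% of all genes, and no member was higher at that p, against 2.45%. Rtp4 was higher in arm G at a log2 fold change of 0.90 ± 0.42 (unadjusted p = 0.0541), Ifi44 at 1.06 ± 0.55 (unadjusted p = 0.0749) and Stat2 at 0.51 ± 0.35. Oas1b alone lay wholly above arm D, against 4.08% of all genes, and did so with TMM scaling but not with median-of-ratios scaling, without the filter or with mitochondrial genes left out. No member lay wholly below, against 3.35%, and 6 (17.6%) did without D.1, against 10.9%. Over all members 19 were higher and 15 lower, with a median of 0.072, beside -0.011 over all genes. All 17 Kupffer cell and macrophage markers were lower in arm G than in arm D (median -0.75, or -0.36 without D.4), and their part was not tested. The balance of the members followed single libraries: 9 were higher without D.1 and 26 without D.7, beside 51.1% of all genes in both. Ifi44 turned to -0.082 without G.3, which held 63.3 CPM against 14.3 and 13.3 in the other arm G libraries.

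Across all groups, several members divided by mitochondrial share. Of 34 members, 9 (26.5%) lay wholly lower in the 5 libraries above 10% than in the other 7, against 7.09% of all genes. They were Dtx3l, Ifih1, Ddx58, Oas1a, Oas2, Oasl, Eif2ak2, Mx2 and Rsad2. None lay wholly higher, against 4.61% of all genes. Ddx58 ran from 1.38 to 5.56 CPM in the 5 libraries and from 6.37 to 30.1 in the 7. Ifih1 ran from 9.24 to 11.2 and from 16.8 to 32.2. Other gaps were narrow. The highest of the 5 and the lowest of the 7 were 12.98 and 13.16 CPM for Oas1a and 5.90 and 6.03 for Oasl. They were 3.52 and 3.78 CPM for Rsad2 and 0.567 and 0.639 for Oas2. The split was counted with TMM scaling only. These libraries are spread over all 4 groups, with 2 in the model and 1 in each of the others. The part of mitochondrial share in the group differences was not tested. Gbp2, Irf1 and Isg15 did not divide the libraries in this way.

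The genes upstream of the members were given by lists. Of 13 interferon genes, the tables list only Ifnk and Ifng, each with at most 3 counts in a library, and neither passed the filter. Of 10 receptor chains, kinases and signal transducers tested, 9 were lower in the model than in normal livers with a median of -0.31, among them Ifnar1, a chain of the type I receptor, at a log2 fold change of -0.55 ± 0.25 (unadjusted p = 0.0454). In arm D 8 of 10 were higher than in the model, led by the interferon gamma receptor chains Ifngr1 at a log2 fold change of 0.71 ± 0.27 (unadjusted p = 0.0237) and Ifngr2 at 0.62 ± 0.28 (unadjusted p = 0.0436). Arm G had 9 of 10 higher with a median of 0.18.

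Among 11 brakes on signalling, Socs3, an inhibitor of JAK kinases that cytokines induce, had the smallest p in each comparison with the model. It was lower in the model than in normal livers at a log2 fold change of -1.89 ± 0.61 (unadjusted p = 0.00884), higher in arm D than in the model at 1.72 ± 0.61 (unadjusted p = 0.0147) and higher in arm G at 1.79 ± 0.61 (unadjusted p = 0.0123). It was at 4.802, 8.59 and 3.88 CPM in the normal livers, 1.296, 2.07 and 1.301 in the model, 1.77, 8.78 and 4.78 in arm D, and 4.98, 2.38 and 8.59 in arm G. No normal library was below any model library, while D.1 and G.3 were the lowest of the didymin libraries. Of the 11 brakes 4 were higher in the model than in normal livers, 7 higher in arm D than in the model and 5 in arm G. Of 17 genes of nucleic acid sensing 10 were higher in the model, 10 in arm D and 14 in arm G. In arm D the leading sensing genes were Unc93b1, which carries endosomal Toll-like receptors, at a log2 fold change of 0.98 ± 0.34 (unadjusted p = 0.0144) and Irf5 at 0.97 ± 0.37 (unadjusted p = 0.0219). D.1 lay within the range of the model for both, at 18.9 CPM for Unc93b1 and 5.82 for Irf5. Their higher arm D means rested on D.4 (48.1 and 16.4 CPM) and D.7 (38.1 and 10.7).

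A list of other interferon-induced genes gave 51 tested genes beside the members. In the model 30 were higher and 21 lower than in normal livers, with a median of 0.13 and Cxcl9, a chemokine for T cells, at a log2 fold change of 1.03 ± 0.45 (unadjusted p = 0.0398). Cxcl9 was at 13.1, 9.19 and 13.5 CPM in the normal livers and 42.2, 14.2 and 16.7 in the model. M.5 stood well above the rest of these, and M.6 was only just above the normal livers. In arm D 37 were higher than in the model with a median of 0.26, and 6 had an unadjusted p under 0.05 while none was lower at that p, against 3.04% and 3.24% of all genes. Without D.7, 28 of 51 were higher with a median of 0.057, and 3 higher and 1 lower at that p, against 1.89% and 1.86%. Without D.4, 31 were higher with a median of 0.099 and 1 at that p, against 1.26% of all genes in each direction. The leading genes were the chemokine Cxcl10 at a log2 fold change of 1.48 ± 0.50 (unadjusted p = 0.0116) and Ciita, the master regulator of MHC class II, at 1.44 ± 0.51 (unadjusted p = 0.0146). Cxcl10 was at 3.39, 3.24 and 5.07 CPM in the normal livers, 6.64, 4.23 and 3.74 in the model, 7.17, 7.34 and 26.3 in arm D, and 8.05, 4.76 and 8.31 in arm G. D.7 held more than 3 times the level of any other library. For Ciita D.1, at 5.68 CPM, lay within the model range of 4.28 to 6.57, with D.4 at 19.7 and D.7 at 17.6. In arm G 38 of 51 were higher, with Ifitm3, which blocks viral entry, at a log2 fold change of 0.80 ± 0.36 (unadjusted p = 0.0459), and Helz2 was lower at -1.10 ± 0.48 (unadjusted p = 0.0412). Between the arms 21 were higher in G and 30 lower. None passed the adjusted test, and the same list without M.6 and G.3 had 31 of 51 higher in arm G, or 27 without G.3 alone.

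The fold changes can also be set beside the ISRE letters, as a description with no test. In arm D against the model the 16 tested members with a match had a median of 0.23 and the 10 without had 0.41. In arm G the medians were 0.53 and 0.47, and in the model against normal livers -0.087 and 0.090. Gbp2 and Gbp5, shown above with their matches, stood beside Mx1, Ifi47 and Cmpk2, which had none in these windows, among the 5 leading members of arm D.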

How the data were processed

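Total RNA of 12 rat liver samples was extracted with Trizol, and libraries were prepared with NEBNext Ultra reagents, as the labels' protocols state. The authors deposited 3 tables of raw read counts per gene, each of 6 libraries, with their own log2 fold changes and p-values for 1 contrast with the model. The submitters' processing notes name DESeq2 and mm9, a mouse build, with no role. For the aligner, the annotation and the use of strand, nothing is given in the sources used here. The shared model counts were equal in all tables, which were joined on the gene symbol, and 36 further columns of per-library values were not used.

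The counts were fitted with edgeR 4.0.16 (R 4.3.3) over all 12 libraries: filterByExpr on 4 groups (minimum count 10), TMM scaling, 1 mean per group, the quasi-likelihood test with 8 residual degrees of freedom, and Benjamini-Hochberg adjustment over 12355 genes. The common biological coefficient of variation was 0.409. Fold changes are log2 and their SE is the change over the root of F. DESeq2 1.42.0 and limma 3.58.1 served as alternatives, and scripts were tested on simulated data. Total counts of 12469914 to 15521648 per library set the precision, with mitochondrial genes at up to 61.0%. Replicate counts differed beyond sampling noise in every group, so all libraries were kept as separate.

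The members and gene lists were chosen with earlier results of these data known. Named genes are the regulators, sensors and effectors most written of, the 3 members of smallest unadjusted p in each direction and comparison, and at most 2 per companion list, direction and comparison. Motifs were matched in RefSeq GRCr8 promoters. The level of 1 gene of the companion lists is not reported here.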

Additional observations from a re-analysis of the deposited data

Results flagged for a closer look

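Among the 6 didymin libraries, G.3 stood apart for 2 of the 34 members. Rtp4 was at 79.9 CPM in G.3, with 37.5 CPM in the next library and 12.2 in the lowest, a gap of 0.626 of the range. Ifi44 was at 63.3 CPM in G.3 with 18.9 in the next, a gap of 0.841 of the range. Both gaps exceed Dixon's critical ratio of 0.625 for 6 values, which chance exceeds in about 1 of 20 groups. Over 34 members chance gives about 1.7 such cases, so 2 is near that number, and Rtp4 passes only just. G.3 is also the library with 61.0% of counts in mitochondrial genes, and the part of that in either level was not tested.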

How the results depend on the processing

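No paired analysis was possible because the count columns do not carry the labels' replicate numbers. Genes called in place of 0 were as follows. Model against normal gave 38 with DESeq2, 6 with limma-voom and quality weights, 3 without the filter and 1 without M.6 and G.3. Arm D against model gave 12 with DESeq2, arm G against model 5, both arms 6, and arm G against arm D 5, with 1 there without the filter. Leaving out single libraries gave 0 to 6 for model against normal, 0 to 1 for both arms and 0 to 1 between the arms.

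Without the 5 libraries of mitochondrial share above 10%, an alternative chosen after seeing the data, 297 genes were called in arm D against model, 21 in arm G and 513 in both arms. In this setting 12752 genes were tested, among them all 34 members. Here M2.1 is the lone model library and is assumed to vary like the other groups. With 1 model library, the calls cannot tell a difference of the group from one of that library. The members called were 2 in arm D, Gbp2 at 2.81 and Oasl2 at 1.68, and 2 in both arms, Ddx58 at -1.58 and Trim25 at -0.96.

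Members at an unadjusted p under 0.05 in either direction moved as well, with the share of all genes at that p in brackets. In model against normal they numbered 5 with limma-voom (2 higher and 3 lower, all genes 29.02%) and 1 with only the groups compared (5.399%). Leaving out single libraries gave 0 to 4, with the 4 reached without M2.1 (1 higher and 3 lower, all genes 20.3%). In arm D they numbered 9 with limma-voom (9 higher and 0 lower, all genes 20.1%), 3 with only the groups compared (7.23%), 3 without M.6 and G.3 (6.84%), 15 without the 5 libraries (9 higher and 6 lower, all genes 22.7%) and 2 to 8 with single libraries left out. In arm D the 2 were reached without D.7 (3.75%), and the 8 both without D.1 (6.02%) and without M2.1 (14.3%). In arm G they numbered 5 with limma-voom (5 higher and 0 lower, all genes 12.8%). They were 0 to 2 with single libraries left out, with the 2 reached without M2.1 (6.46%). In both arms they numbered 5 with DESeq2 (4.63%) and 5 without the filter (4.27%). Limma-voom gave 8 (8 higher and 0 lower, all genes 18.3%). There were 0 with only the groups compared (3.28%) and 0 without M.6 and G.3 (6.97%). Single libraries left out gave 0 without D.4 (2.84%) or D.7 (3.39%) and up to 8 without D.1 (5.1%). Between the arms they numbered 3 with DESeq2 (3.99%) and 2 without the filter (3.43%). Limma-voom gave 4 (1 higher and 3 lower, all genes 7.54%). There were 0 with only the groups compared (2.29%) and 0 without M.6 and G.3 (1.94%). They were 0 to 3 with single libraries left out, with the 3 reached without D.1 (2.92%). By share of members, limma-voom gave 14.7% in model against normal, 26.5% in arm D and 14.7% in arm G. The median in arm D was 0.78 with limma-voom and 0.038 to 0.69 with single libraries left out.

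Of 32 named fold changes, 27 kept their sign under all 20 alternatives. In arm G against model Dtx3l turned to 0.65 with limma-voom and Ddx58 to 1.51. With both arms Dtx3l turned to 0.64. Between the arms Ifi44 turned to -0.10 with limma-voom, -0.082 without M.6 and G.3 and -0.25 without the 5 libraries, and Stat2 to -0.090 without the 5 libraries. With single libraries left out, Dtx3l in arm G from -1.11 to 0.65, Ddx58 in arm G from -1.17 to 1.73, Dtx3l in both arms from -0.97 to 0.73 and Ifi44 between the arms from -0.082 to 1.39 ranged, the first 3 turning without M2.1 and the last without G.3. The cause was not tested.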
